A study of Homo sapiens with 12 samples.

Results

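Transcripts of 10 human immediate early genes were followed in libraries labelled as 2 liver tumour lines, with and without geniposide, an iridoid glycoside of gardenia fruit. The 10 genes are the early growth response genes EGR1, EGR2 and EGR3, the nuclear receptor genes NR4A1, NR4A2 and NR4A3, the immediate early response genes IER2, IER3 and IER5, and KLF6. They were taken by name from a deposited table of 58735 genes, and all 10 were found. The study's title names the oxidase DUOX1 and ferroptosis, cell death by lipid peroxidation, as the route by which geniposide may act on hepatocellular carcinoma. There were 4 groups of 3 libraries: geniposide-treated and untreated cells labelled Huh7, a line from a hepatocellular carcinoma, and geniposide-treated and untreated cells labelled HepG2, a hepatoblastoma line. Treatment lasted 48 h, and no dose, vehicle or number of separate cultures was at hand. P-values therefore measure the spread between these libraries, which may be technical.

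Immediate early genes are switched on by growth factors, stress or calcium without the need for new protein synthesis, in most cells within minutes to hours, and their short-lived mRNAs usually fall again soon after. Serum response factor with its ETS-family partners, and CREB-family factors, are their best-known inducers. EGR proteins are zinc-finger transcription factors that bind GC-rich sites and are held back by the NAB corepressors. NR4A proteins are orphan nuclear receptors whose activity depends mainly on how much of them is made. KLF6 is a zinc-finger factor studied as a growth suppressor in liver cancer. IER2, IER3 and IER5 encode small regulators, of which IER3 acts on survival and IER5 binds the heat shock factor HSF1.

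In HepG2-labelled libraries 7 of the 10 genes rose with geniposide: EGR1 to 3.73 times the untreated mean, NR4A2 to 2.42, IER3 to 2.16, NR4A1 to 1.97, KLF6 to 1.96, IER2 to 1.57 and IER5 to 1.26 times. For comparison, 42.5% of the 15518 tested genes changed there, 21.0% upward and 21.5% downward. In Huh7-labelled libraries KLF6 rose to 2.04, NR4A1 to 1.46 and IER2 to 1.19 times the untreated mean, and IER5 fell to 0.765 times, where 34.5% of tested genes changed (16.4% rose and 18.1% fell). For 5 genes (EGR1, NR4A2, IER2, IER3 and IER5) the effect in HepG2-labelled libraries differed from that in Huh7-labelled libraries when the difference itself was tested, as for 27.8% of tested genes (14.1% with the higher effect in HepG2-labelled libraries and 13.7% with the lower). EGR2 and EGR3 were at or near the limit of detection in every group and are not among the 15518 tested genes.

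Each library held between 15056655 and 17211659 fragments in genes, so that 3 fragments, the most that a count of 0 allows by counting error, stand for 0.161 to 0.212 FPKM in a gene of 1 kb. FPKM are fragments per kilobase of gene over a divisor for each library, so levels can be set side by side between genes. The divisor was not the number of fragments in genes alone. It was 1.09 to 1.17 times that number in Huh7-labelled and 0.895 to 0.914 times in HepG2-labelled libraries. Ratios of FPKM between the lines include this difference, and its source was not tested. Levels are deposited FPKM, with mean ± SD over n = 3 libraries. Changes are limma differences in log2(FPKM + 1) ± SE with Benjamini-Hochberg adjusted p, called at 0.05, and they understate changes of genes near 1 FPKM. The labelled cell type was not borne out by its markers. Of 18 hepatocyte markers, 1 reached a group mean of 1 FPKM (RBP4 in treated HepG2-labelled libraries), the group means of albumin (ALB) and AFP did not exceed 0.0212 FPKM, and the list summed to 0.509 to 1.08 FPKM in treated and 0.600 to 0.717 FPKM in untreated Huh7-labelled libraries, and to 1.34 to 2.06 FPKM in treated and 1.24 to 1.54 FPKM in untreated HepG2-labelled libraries. Groups are therefore called by their labels. Other markers moved with treatment. In HepG2-labelled libraries 10 fibroblast markers, 6 of them at 1 FPKM or more, summed to 227 to 242 FPKM with geniposide and 148 to 155 FPKM without (COL1A2 and PDGFRA at 0 in both groups). That list moved both ways, since VIM had 127 FPKM with geniposide and 77.2 FPKM without and LUM 59.5 FPKM with and 35.4 FPKM without, while PDGFRB had 2.09 FPKM with and 4.33 FPKM without. In the same libraries 7 epithelial and cholangiocyte markers summed to 415 to 455 FPKM with geniposide and 923 to 953 FPKM without. Nearly all of that sum came from the keratins KRT7, KRT8 and KRT18. They had 72.9, 161 and 199 FPKM with geniposide and 279, 336 and 321 FPKM without. Only SOX9 was higher with geniposide, at 0.590 FPKM with and 0.257 FPKM without. In Huh7-labelled libraries the fibroblast list summed to 29.5 to 66.7 FPKM with geniposide and 65.4 to 66.1 FPKM without (COL1A2 and FAP at 0), and the epithelial list to 29.9 to 31.8 FPKM with geniposide and 39.5 to 40.7 FPKM without (KRT7 at 0). The fibroblast list moved both ways there too. VIM had 45.7 FPKM with geniposide and 60.7 FPKM without, while COL1A1 had 4.80 FPKM with and 3.42 FPKM without. Endothelial and leukocyte lists of 8 genes each summed to at most 3.15 FPKM in any library. The part of these markers in the results was not tested, and in bulk RNA fewer cells of a type and less RNA per cell cannot be told apart. The third treated Huh7-labelled library stood apart from the other treated ones, with a chi-square per degree of freedom of 43.4 and 44.9 against them, where those 2 differed by 3.01. Values for Huh7-labelled libraries without it are therefore given for each gene tested and each list.

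The promoter sequences of the genes differed in the inducer motifs they held, and 4 are shown because they belong to genes that share motifs but not levels. RefSeq promoter sequence (GRCh38.p14) was given for 7 of the 10 genes in 10 windows. The 250 bases before each RefSeq start were searched on both strands. A CArG box, the serum response factor motif, was in the windows of EGR1 and EGR2 and in 1.16% of 35116 windows of all genes. The core TGACG of the CREB motif, which is also part of the full motif TGACGTCA, was in windows of EGR1, EGR2, NR4A3 and IER2 and in 21.2% of all windows. The EGR motif GCGNGGGCG was in the windows of EGR1 and KLF6 and in 8.41% of all windows. No member window held TGACGTCA (1.65% of all windows), the ATF4 motif TGATGNAA (3.14%), the NR4A motif AAAGGTCA (1.05%), the ETS motif CCGGAAGT (3.42%) or TATAAA (10.7%). In the sequences, 5′ to 3′ on the gene's own strand, capitals mark the CArG boxes, the core TGACG on either strand and the EGR motif. No printed base lies in a GENCODE 29 exon of the same gene. EGR1 is chr5:138465229-138465478 (plus strand), EGR2 is chr10:62816367-62816616 (minus strand, before the most downstream of its 3 starts and inside the gene's annotated span), NR4A3 is chr9:99821635-99821854 (plus strand) and IER2 is chr19:13150161-13150410 (plus strand).
EGR1: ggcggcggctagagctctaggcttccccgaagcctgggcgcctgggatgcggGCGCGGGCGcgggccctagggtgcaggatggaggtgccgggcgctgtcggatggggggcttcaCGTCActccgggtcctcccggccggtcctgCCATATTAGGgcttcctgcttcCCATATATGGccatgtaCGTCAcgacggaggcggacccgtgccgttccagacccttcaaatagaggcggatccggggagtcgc
EGR2: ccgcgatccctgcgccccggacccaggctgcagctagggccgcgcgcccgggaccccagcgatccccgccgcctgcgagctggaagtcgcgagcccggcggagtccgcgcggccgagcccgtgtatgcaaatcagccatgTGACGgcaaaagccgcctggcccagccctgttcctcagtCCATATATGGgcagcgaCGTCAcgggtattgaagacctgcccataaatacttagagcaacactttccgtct
NR4A3: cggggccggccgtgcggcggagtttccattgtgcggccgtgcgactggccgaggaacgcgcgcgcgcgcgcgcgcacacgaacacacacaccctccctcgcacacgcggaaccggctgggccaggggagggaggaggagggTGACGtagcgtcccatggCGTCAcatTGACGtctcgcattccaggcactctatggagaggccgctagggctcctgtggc
IER2: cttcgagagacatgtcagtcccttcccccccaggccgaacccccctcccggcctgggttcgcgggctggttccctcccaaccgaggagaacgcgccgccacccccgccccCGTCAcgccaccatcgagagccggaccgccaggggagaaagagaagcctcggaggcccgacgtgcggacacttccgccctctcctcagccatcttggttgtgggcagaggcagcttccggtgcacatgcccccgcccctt
The EGR1 sequence holds CArG boxes whose first bases lie 105 and 83 bases before the start, between TGACG cores at 135 and 66 bases. An EGR motif lies further upstream, at 198 bases. The EGR2 sequence has a similar row without the EGR motif, a TGACG core at 110, a CArG box at 71 and a core at 54 bases. NR4A3 has cores at 109, 91 and 83 bases and another at 25 bases, which lies past the printed end, and no CArG box. IER2 has a single core at 140 bases. Such matches describe the letters of the window and are not evidence of binding.

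**Figure D1:**
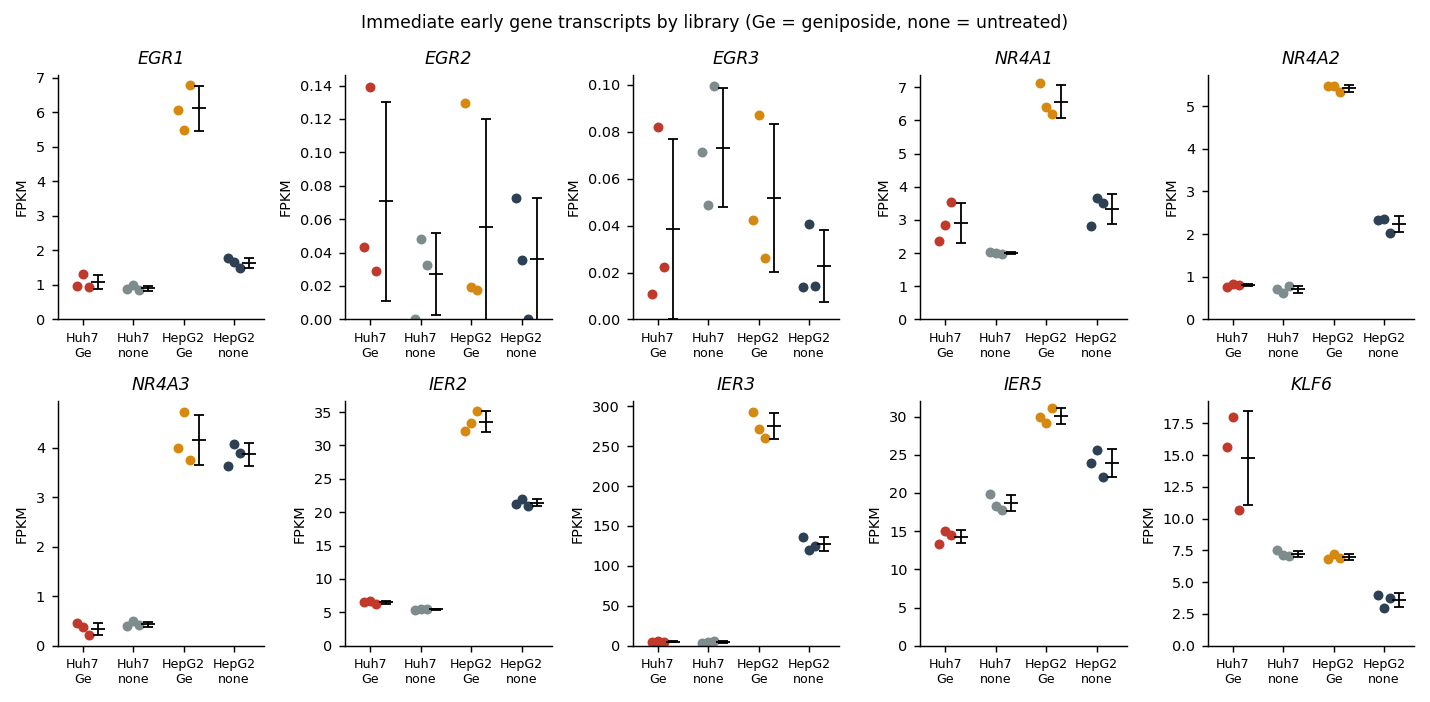
Deposited FPKM of each gene in each library (points) with mean and SD of 3 libraries (bars to the right), 1 panel per gene with its own linear axis from 0; bars reaching below 0 are cut at the axis. EGR1 in treated HepG2-labelled libraries sits at 5.49 to 6.80 FPKM, above the 1.48 to 1.78 FPKM of the untreated ones, and KLF6 is higher with geniposide in both lines.

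EGR1 (ENSG00000120738, chromosome 5, 138465490 to 138469315 in hg38, plus strand), the best-studied EGR factor, was the gene of the group with the greatest relative rise. In HepG2-labelled libraries it had 6.06, 5.49 and 6.80 FPKM with geniposide and 1.78, 1.66 and 1.48 FPKM without, from 278, 244 and 334 fragments with geniposide and 83, 79 and 67 without. All treated values lay above all untreated ones, and the spread within each group was small beside the gap. The change was 1.43 ± 0.09 (adjusted p = 1.22e-06 by limma), the 67th largest rise of 15518 tested genes. In Huh7-labelled libraries EGR1 had 0.974, 1.31 and 0.943 FPKM with geniposide and 0.883, 0.984 and 0.847 FPKM without. These groups overlapped, with a change of 0.12 ± 0.09 (95% confidence interval −0.08 to 0.32, adjusted p = 0.352 by limma). The effect was 1.31 ± 0.13 greater in HepG2-labelled than in Huh7-labelled libraries (adjusted p = 8.70e-05 by limma).

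EGR2 and EGR3, which act in nerve myelination and in immune and muscle spindle development, rested on 9 fragments or fewer per library. EGR2 had 3, 9 and 2 fragments with geniposide and 0, 3 and 2 without in Huh7-labelled libraries, and 7, 1 and 1 with geniposide and 4, 2 and 0 without in HepG2-labelled libraries. EGR3 had 1, 7 and 2 fragments with geniposide and 6, 4 and 8 without in Huh7-labelled libraries, and 3, 6 and 2 with geniposide and 1, 3 and 1 without in HepG2-labelled libraries. For EGR2 the level worth 3 fragments averaged 0.0446 to 0.0550 FPKM over the groups, against group means of 0.0270 to 0.0706 FPKM. For EGR3 it averaged 0.0339 to 0.0418 FPKM, against group means of 0.0230 to 0.0733 FPKM. Both fell below the filter of 1 FPKM in at least 3 libraries, and in the fit without a filter neither passed in any comparison (adjusted p 0.140 to 0.946 by limma). A change in either gene was not detectable at this depth.

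Among the nuclear receptors NR4A1 and NR4A2 rose in HepG2-labelled libraries and NR4A3 did not pass in either line. NR4A1 (Nur77), which acts in cell death, T-cell and metabolic control, had 7.12, 6.39 and 6.19 FPKM with geniposide and 2.83, 3.66 and 3.50 FPKM without in HepG2-labelled libraries. The groups did not overlap, and the change was 0.81 ± 0.11 (adjusted p = 0.000175 by limma). In Huh7-labelled libraries NR4A1 had 2.35, 2.84 and 3.54 FPKM with geniposide and 2.02, 1.995 and 1.96 FPKM without. Here too the groups stood apart, with an SD of only 0.0282 FPKM among the untreated libraries and the third treated library highest. The Huh7 change was 0.38 ± 0.11 (adjusted p = 0.0219 by limma), and 0.26 without that library (adjusted p = 0.0445). The call was lost when any untreated Huh7-labelled library was left out (adjusted p 0.0536 to 0.0616) and when this line was fitted by itself (adjusted p = 0.0681). The effects in both lines differed by 0.43 ± 0.15 (adjusted p = 0.0596 by limma), and by 0.55 without the third treated Huh7-labelled library (adjusted p = 0.00717).

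NR4A2 (Nurr1), known for its role in dopamine neurons, had 5.46, 5.46 and 5.33 FPKM with geniposide and 2.32, 2.36 and 2.03 FPKM without in HepG2-labelled libraries. The treated libraries agreed within an SD of 0.0771 FPKM and all lay above the untreated ones. The change was 0.99 ± 0.06 (adjusted p = 1.41e-06 by limma), the 297th largest rise tested. In Huh7-labelled libraries NR4A2 had 0.770, 0.834 and 0.814 FPKM with geniposide and 0.713, 0.614 and 0.776 FPKM without, with overlapping groups. Its Huh7 change was 0.09 ± 0.06 (95% confidence interval −0.06 to 0.23, adjusted p = 0.336 by limma), and the difference between lines was 0.90 ± 0.09 (adjusted p = 9.55e-05). NR4A3 (Nor-1) had 3.996, 4.72 and 3.75 FPKM with geniposide and 3.62, 4.08 and 3.89 FPKM without in HepG2-labelled libraries. It had 0.450, 0.370 and 0.213 FPKM with geniposide and 0.402, 0.489 and 0.411 FPKM without in Huh7-labelled libraries. Both pairs of groups overlapped, and the 95% confidence intervals of the change were −0.12 to 0.28 in HepG2-labelled and −0.30 to 0.10 in Huh7-labelled libraries (adjusted p = 0.532 and 0.458 by limma). Untreated levels in HepG2-labelled libraries, 3.33 ± 0.441 for NR4A1, 2.24 ± 0.179 for NR4A2 and 3.86 ± 0.232 FPKM for NR4A3, lay lowest for NR4A2, whose range did not overlap the others. Differences between the changes of the 3 NR4A genes were not tested.

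IER3 (ENSG00000137331, chromosome 6, 30743199 to 30744554 in hg38, minus strand), whose product IEX-1 is induced by NF-kB and growth factors, had the highest level of the group in HepG2-labelled libraries. There it had 292, 272 and 260 FPKM with geniposide and 136, 120 and 125 FPKM without, from 5215 to 5796 fragments with geniposide and 2439 to 2752 without. The groups were far apart, and the change was 1.10 ± 0.11 (adjusted p = 2.00e-05 by limma). Among tested genes IER3 had the 100th highest mean level in treated and the 282nd highest in untreated HepG2-labelled libraries. In Huh7-labelled libraries IER3 had 4.94, 5.47 and 4.13 FPKM with geniposide and 3.79, 4.73 and 5.25 FPKM without. These groups overlapped (0.07 ± 0.11, 95% confidence interval −0.17 to 0.31, adjusted p = 0.689 by limma), and the difference between lines was 1.04 ± 0.15 (adjusted p = 0.000862). The antisense gene IER3-AS1 overlaps 26.5% of the IER3 exon bases and was listed at 0.763 FPKM in treated and at 0 in untreated HepG2-labelled libraries. The library protocol in the labels does not mark the strand, so fragments of the overlap cannot be told apart.

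IER2, a nuclear protein linked to cell motility, rose in both lines and more in HepG2-labelled libraries. It had 32.1, 33.3 and 35.2 FPKM with geniposide and 21.3, 21.98 and 20.9 FPKM without in HepG2-labelled libraries (0.62 ± 0.05, adjusted p = 4.32e-06 by limma). In Huh7-labelled libraries it had 6.51, 6.74 and 6.23 FPKM with geniposide and 5.37, 5.57 and 5.42 FPKM without (0.21 ± 0.05, adjusted p = 0.00612 by limma). Neither pair of groups overlapped, but the Huh7 call was lost with voom on recovered fragments (0.22, adjusted p = 0.0544). The difference between lines was 0.41 ± 0.07 (adjusted p = 0.00175 by limma). A gene on the other strand, AC011446.2, shares 30.8% of the IER2 exon bases and was listed at 0 in all 4 groups.

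IER5, whose product joins HSF1 with the phosphatase PP2A, moved in opposite directions. In HepG2-labelled libraries it had 30.0, 29.2 and 31.2 FPKM with geniposide and 23.9, 25.7 and 22.1 FPKM without, a rise of 0.32 ± 0.07 (adjusted p = 0.00269 by limma). In Huh7-labelled libraries it had 13.3, 15.1 and 14.4 FPKM with geniposide and 19.8, 18.3 and 17.8 FPKM without, a change of −0.36 ± 0.07 (adjusted p = 0.00190 by limma). Every treated library lay above the untreated ones in the HepG2-labelled cells and below them in the Huh7-labelled cells. The effects differed by 0.69 ± 0.09 (adjusted p = 0.000592 by limma), and again by 0.69 when the third treated Huh7-labelled library was left out (adjusted p = 0.000429).

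KLF6 rose in both lines, by 0.91 in Huh7-labelled and 0.81 in HepG2-labelled libraries. KLF6 in Huh7-labelled libraries had 15.6, 18.01 and 10.7 FPKM with geniposide and 7.52, 7.11 and 7.10 FPKM without. The third treated library was the lowest of the treated ones and still above every untreated one. The change was 0.91 ± 0.15 (adjusted p = 0.00101 by limma), the 242nd largest rise tested, and 1.11 without that library (adjusted p = 1.38e-05). In HepG2-labelled libraries KLF6 had 6.82, 7.21 and 6.93 FPKM with geniposide and 3.99, 2.95 and 3.78 FPKM without (0.81 ± 0.15, adjusted p = 0.00130 by limma). The effect in HepG2-labelled libraries minus that in Huh7-labelled libraries was −0.10 ± 0.21 (adjusted p = 0.770 by limma). The 95% confidence interval of that difference, −0.56 to 0.37, still allows unequal effects, and leaving out the third treated Huh7-labelled library gave −0.30 (adjusted p = 0.0873).

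**Figure D2:**
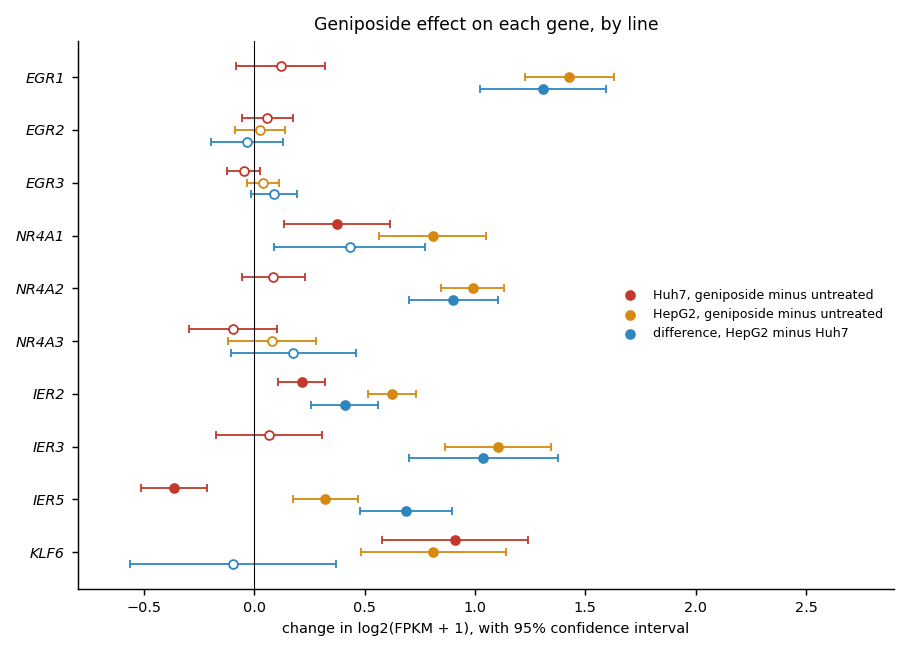
Change in log2(FPKM + 1) with 95% confidence interval for geniposide minus untreated in Huh7-labelled libraries (red), in HepG2-labelled libraries (orange) and for the difference of both effects (blue); filled points have an adjusted p under 0.05 by limma. EGR1 (1.43), IER3 (1.10) and NR4A2 (0.99) are filled in orange and open in red, IER5 lies on opposite sides of 0, and the KLF6 effects overlap.

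Counts over the whole table set these calls in context. The percentages are over genes that passed the filter, as 8 of the 10 did, so counts out of 10 are not on the same footing. In the 7 genes that rose in HepG2-labelled libraries, against 21.0% of tested genes, the treated and untreated groups did not overlap, as in the 29.4% of tested genes with treated above untreated. In Huh7-labelled libraries 4 of 10 were called, beside 34.5% of tested genes. The same 4 genes were those whose Huh7 groups did not overlap, as in 43.9% of tested genes in either direction. The difference between lines passed for 5 of 10, each with the higher effect in HepG2-labelled libraries, as for 14.1% of tested genes. Rises made up 47.5% of all calls in Huh7-labelled and 49.3% in HepG2-labelled libraries. On a transcripts-per-million scale, where 21135 genes passed the filter, they made up 64.0% in Huh7-labelled and 59.3% in HepG2-labelled libraries, and what the scale and the added genes each contributed was not tested. The 3 rises and 1 fall in Huh7-labelled and 7 rises in HepG2-labelled libraries were called on that scale too. Without the third treated Huh7-labelled library the same calls were made in both lines. The Huh7 changes were then 0.17 for EGR1 (adjusted p = 0.193), 0.08 for NR4A2 (adjusted p = 0.340), −0.02 for NR4A3 (adjusted p = 0.856), 0.24 for IER2 (adjusted p = 0.00135), 0.16 for IER3 (adjusted p = 0.250) and −0.37 for IER5 (adjusted p = 0.00207), all by limma.

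The untreated lines differed at 8 of the 10 genes, 7 higher and 1 lower in HepG2-labelled libraries. These 8 are all the genes of the group that passed the filter. Of all tested genes 71.8% differed, 36.1% higher and 35.8% lower in HepG2-labelled libraries. IER3 stood at 127 ± 8.28 FPKM in untreated HepG2-labelled libraries and 4.59 ± 0.743 FPKM in untreated Huh7-labelled libraries, a ratio of 27.7 (4.53 ± 0.11, adjusted p = 2.00e-11 by limma). NR4A3 was 8.90 times as high (3.86 ± 0.232 FPKM in HepG2-labelled cells, 0.434 ± 0.0478 FPKM in Huh7-labelled cells, adjusted p = 1.36e-08 by limma), IER2 3.92 times and NR4A2 3.19 times. EGR1 and NR4A1 were 1.81 and 1.67 times as high. IER5 was 1.28 times as high (adjusted p = 0.000782 by limma), but on the transcripts-per-million scale, where the median over the genes tested there lay 0.29 lower, its difference was 0.08 (adjusted p = 0.298). KLF6 was the gene lower in untreated HepG2-labelled libraries, at 3.57 ± 0.547 FPKM there and 7.25 ± 0.240 FPKM in the Huh7-labelled ones (−0.86 ± 0.15, adjusted p = 0.000332 by limma).

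The order of levels differed between the lines. In treated HepG2-labelled libraries IER3 was followed by IER2, IER5, KLF6, NR4A1, EGR1, NR4A2 and NR4A3, with KLF6, NR4A1 and EGR1 overlapping their neighbours in range. In untreated HepG2-labelled libraries IER3 was followed by IER5 and IER2, then by NR4A3, KLF6 and NR4A1, whose ranges overlapped in turn, then by NR4A2 and EGR1. In treated Huh7-labelled libraries KLF6 and IER5 led with overlapping ranges, at 14.8 ± 3.72 and 14.3 ± 0.890 FPKM, followed by IER2, IER3, NR4A1, EGR1, NR4A2 and NR4A3. In untreated Huh7-labelled libraries IER5 led at 18.7 ± 1.02 FPKM and KLF6 came next at 7.25 ± 0.240 FPKM, and the rest kept that order. EGR2 and EGR3 were last in every group.

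**Figure D3:**
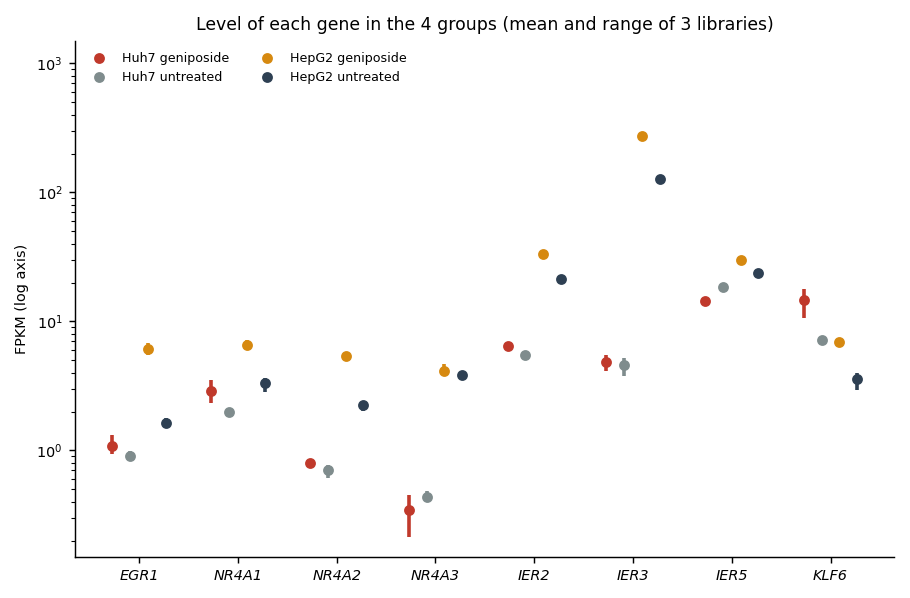
Mean (point) and range (line) of deposited FPKM over 3 libraries per group on a log axis, for the 8 genes that reached 1 FPKM in at least 3 libraries. IER3 spans 4.59 to 275 FPKM between the group means, while IER5 spans 14.3 to 30.1 FPKM.

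In gene structure (GENCODE 29, whose hg38 coordinates match the table for all 10) the group falls into compact and long genes. IER2 lies on chromosome 19 at 13150415 to 13154908, and IER5 on chromosome 1 at 181088712 to 181092899. KLF6 lies on chromosome 10 at 3775996 to 3785281, where EGR2 lies at 62811996 to 62919900. NR4A1, NR4A2 and NR4A3 lie on chromosome 12 at 52022832 to 52059507, chromosome 2 at 156324432 to 156342348 and chromosome 9 at 99821855 to 99866891. In the transcript with the longest coding sequence IER2 and IER5 have 1 exon, IER3 and the EGR genes have 2, KLF6 has 4, and the NR4A genes have 7 or 8. Encoded proteins run from 156 residues for IER3 to 652 for NR4A1, and gene spans from 1356 bases for IER3 to 107905 for EGR2, whose longest transcripts start far upstream. Both genes with 1 exon and genes with 8 rose in HepG2-labelled libraries. Library deviations from the untreated mean of the same line, over 12 libraries, ran most closely together for EGR1 and NR4A2 (Pearson r = 0.985), EGR1 and IER3 (0.970) and NR4A2 and IER3 (0.968). They were least alike for IER5 and KLF6 (−0.12). These values are descriptions over libraries that share treatment groups and carry no p.

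Outside the group, the genes whose deviations over the 12 libraries were most like those of 7 members were found among 12150 protein-coding genes. For EGR1 they were TINAGL1 (Pearson r = 0.997), TENT4A (0.996) and BSG (0.995). For IER3 they were ZNF217 (0.990), MAFF (0.990) and RORA (0.989), and for KLF6 FAM206A (0.991), MARF1 (0.989) and NEO1 (0.977). For IER5 they were MGAT1 (0.983), TCF7L2 (0.980) and EMC10 (0.978). Their fall in Huh7-labelled and rise in HepG2-labelled libraries follows from choosing genes by likeness to IER5 and is no separate result. IER2 was closest to GUSB, ZNF385A and SIAE (0.991 to 0.994), NR4A1 to CLIP4, ST20 and KDM4C (0.976 to 0.981), and NR4A3 to FLRT3, GNG7 and THNSL1 (0.895 to 0.960).

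Factors that induce immediate early genes moved in both directions. For list counts from deposited FPKM of all 12 libraries, the background is 21.0% rises and 21.5% falls for HepG2, 16.4% and 18.1% for Huh7. Counts from other settings should not be read against these shares. Leaving out the third treated Huh7-labelled library raised the background to 4094 rises and 4236 falls of 15319 genes for HepG2. For Huh7 it was then 3403 and 3646. On the transcripts-per-million scale, 21135 genes gave 3906 rises and 2676 falls for HepG2, and 3630 and 2042 for Huh7. Whether any list exceeded its background was not tested. Of 24 tested inducers, HepG2-labelled libraries had 8 rises and 4 falls, and Huh7-labelled ones 6 rises and 2 falls. Their median change was 0.03 in HepG2-labelled and 0.10 in Huh7-labelled libraries, beside 0.00 for all 15518 tested genes in both. These counts moved with the setting, as did the calls over all tested genes. Transcripts-per-million scaling, which let 25 inducers pass the filter, gave 11 rises and 2 falls in HepG2-labelled libraries (median 0.10) and 9 rises and 1 fall in Huh7-labelled libraries (median 0.18). Leaving out the third treated Huh7-labelled library gave 10 rises and 7 falls in HepG2-labelled and 6 rises and 4 falls in Huh7-labelled libraries, where the median was 0.05. The serum response factor partner ELK4 rose in HepG2-labelled libraries, to 10.2 ± 0.317 FPKM with geniposide against 6.32 ± 0.198 FPKM without (0.61, adjusted p = 1.18e-05 by limma), and rose by 0.24 in Huh7-labelled libraries (adjusted p = 0.00759). The CREB coactivator CRTC2 had 25.6 ± 0.794 FPKM with geniposide and 17.7 ± 1.55 FPKM without there (0.51, adjusted p = 5.93e-05 by limma), and a change of −0.13 in Huh7-labelled libraries (adjusted p = 0.125). The kinase RPS6KA4 (MSK2), which phosphorylates CREB and histone H3, fell in both lines, to 11.3 ± 0.831 FPKM against 22.9 ± 1.04 FPKM untreated in HepG2-labelled and to 7.87 ± 0.260 FPKM against 11.3 ± 0.959 FPKM untreated in Huh7-labelled libraries (adjusted p = 2.83e-06 and 0.000508 by limma). Of 12 tested EGR and NR4A partners, 6 rose and 1 fell in HepG2-labelled and 3 rose and 5 fell in Huh7-labelled libraries. Without the third treated Huh7-labelled library 7 rose and 3 fell in HepG2-labelled libraries, with 3 rises and 5 falls in Huh7-labelled ones, and transcripts-per-million scaling gave 3 rises and 3 falls in the Huh7-labelled ones. The EGR corepressors NAB1 and NAB2 were among the rises in HepG2-labelled libraries, NAB1 to 20.2 ± 0.642 against 14.4 ± 0.384 FPKM untreated and NAB2 to 18.9 ± 0.460 against 15.1 ± 0.495 FPKM untreated (adjusted p = 0.00221 and 0.00254 by limma). In Huh7-labelled libraries NAB2 rose by 0.29 (adjusted p = 0.00485 by limma), and NAB1 had a change of 0.04 (adjusted p = 0.760).

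Of 37 other immediate early genes, 19 rose and 6 fell with geniposide in HepG2-labelled cells, while 10 rose and 8 fell in Huh7-labelled cells. The median change was 0.26 in HepG2-labelled and 0.11 in Huh7-labelled libraries. Without the third treated Huh7-labelled library, the counts were 22 rises and 9 falls in HepG2-labelled libraries, since the joint fit pools the spread, and 13 rises and 7 falls in Huh7-labelled ones. The small MAF factor MAFF had 11.5 ± 0.182 FPKM with geniposide and 4.21 ± 0.389 FPKM without in HepG2-labelled libraries (1.27, adjusted p = 2.10e-06 by limma), and a change of 0.17 in Huh7-labelled libraries (adjusted p = 0.170). The antiproliferative gene BTG1 rose in both lines, to 38.4 ± 1.79 against 15.5 ± 0.927 FPKM untreated in HepG2-labelled and to 14.0 ± 2.07 against 8.09 ± 0.337 FPKM untreated in Huh7-labelled libraries (adjusted p = 2.90e-06 and 0.000217 by limma). The kinase SGK1 fell in both lines, in HepG2-labelled libraries to 21.4 ± 0.862 against 31.9 ± 0.543 FPKM untreated (adjusted p = 8.40e-06 by limma). Its change in Huh7-labelled libraries was −0.27 (adjusted p = 0.00137 by limma). In Huh7-labelled libraries the growth arrest gene GADD45A had 55.2 ± 11.4 FPKM with geniposide and 16.6 ± 1.14 FPKM without (1.66, adjusted p = 7.51e-06 by limma), and the Notch target HES1 had 26.1 ± 6.48 FPKM with it and 12.1 ± 0.578 FPKM without (adjusted p = 0.000292). In HepG2-labelled libraries HES1 rose by 0.59 (adjusted p = 0.00508 by limma), and GADD45A had a change of −0.09 (adjusted p = 0.616).

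**Figure D4:**
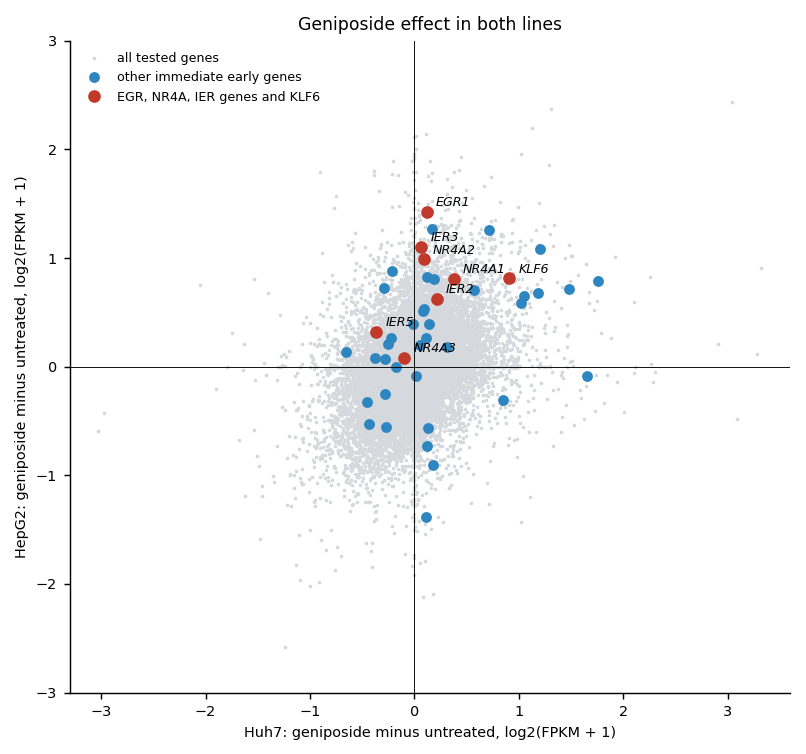
Change in log2(FPKM + 1) with geniposide in Huh7-labelled (x) and HepG2-labelled libraries (y) for all tested genes (grey, 2 of them outside the axes), 37 other immediate early genes (blue) and 8 genes of the group (red, named). EGR1, IER3 and NR4A2 lie near 0 on x (0.12, 0.07 and 0.09) and at 1.43, 1.10 and 0.99 on y, KLF6 is high on both, and IER5 is the red point left of 0 and well above 0 on y.

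Among other KLF genes, 9 of 13 tested rose in HepG2-labelled libraries, and 5 rose and 2 fell in Huh7-labelled libraries, with median changes of 0.39 and 0.14. KLF10, induced early by TGF-beta, had 28.9 ± 0.880 FPKM with geniposide and 17.7 ± 1.33 FPKM without in HepG2-labelled libraries and, in Huh7-labelled libraries, 16.0 ± 2.67 FPKM with and 6.42 ± 0.419 FPKM without (adjusted p = 0.000272 and 1.64e-05 by limma). KLF11 had 11.6 ± 0.261 FPKM with geniposide and 6.83 ± 0.239 FPKM without in HepG2-labelled libraries (adjusted p = 2.46e-06 by limma), and rose by 0.17 in Huh7-labelled libraries (adjusted p = 0.0212). With the third treated Huh7-labelled library left out, 11 of the KLF genes rose and 2 fell in HepG2-labelled cells, and 5 rose and 3 fell in Huh7-labelled ones, where the median was 0.09. Transcripts-per-million scaling gave a median of 0.26 there.

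Genes reported elsewhere as EGR1 or NR4A targets moved in both directions. Of 18 EGR1 targets, 6 rose and 2 fell in HepG2-labelled libraries, where EGR1 rose, and 5 rose in Huh7-labelled libraries, where EGR1 did not pass. The median change was 0.15 in HepG2-labelled and 0.02 in Huh7-labelled libraries, where voom on recovered fragments gave −0.05. Leaving out the third treated Huh7-labelled library gave 9 rises and 3 falls in HepG2-labelled and 7 rises in Huh7-labelled libraries, with a Huh7 median of 0.08. Transcripts-per-million scaling gave medians of 0.24 in HepG2-labelled and 0.06 in Huh7-labelled libraries. The angiogenic factor VEGFA rose in both lines, to 88.3 ± 3.12 against 31.2 ± 0.826 FPKM untreated in HepG2-labelled and to 10.3 ± 0.389 against 4.65 ± 0.191 FPKM untreated in Huh7-labelled libraries (adjusted p = 3.19e-08 and 1.01e-06 by limma). Of 10 tested NR4A targets, 6 rose in HepG2-labelled libraries and 3 rose and 1 fell in Huh7-labelled libraries, with medians of 0.18 in HepG2-labelled and 0.03 in Huh7-labelled libraries. With voom 4 rose in HepG2-labelled libraries, the medians being 0.63 in HepG2-labelled and −0.01 in Huh7-labelled libraries. With the third treated Huh7-labelled library left out, 6 rose and 1 fell in HepG2-labelled and 4 rose and 1 fell in Huh7-labelled libraries, where the median was 0.20. Transcripts-per-million scaling gave medians of 0.29 in HepG2-labelled and 0.08 in Huh7-labelled libraries over 13 genes. The fuel-switching kinase PDK4 had 18.1 ± 0.0685 FPKM with geniposide and 8.19 ± 0.644 FPKM without in HepG2-labelled libraries (adjusted p = 1.37e-06 by limma), and a change of 0.10 in Huh7-labelled libraries (adjusted p = 0.322). The pro-apoptotic BCL2L11 (BIM) rose there, to 5.29 ± 0.0873 against 2.40 ± 0.223 FPKM untreated, and fell in Huh7-labelled libraries, to 3.72 ± 0.521 against 5.98 ± 0.293 FPKM untreated (adjusted p = 1.44e-05 and 0.000498 by limma).

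Most genes of a list of HSF1, its heat shock targets and PP2A subunits fell in both lines, while IER5 rose in HepG2-labelled and fell in Huh7-labelled libraries. Of 22 tested genes 17 fell and 1 rose in the HepG2-labelled and 15 fell and 1 rose in the Huh7-labelled cells, with median changes of −0.60 and −0.61. When the third treated Huh7-labelled library was left out, 20 fell and 1 rose in the HepG2-labelled and 17 fell and 2 rose in the Huh7-labelled cells. The chaperone HSPA8 had 164 ± 5.29 FPKM with geniposide and 262 ± 3.54 FPKM without in HepG2-labelled libraries (−0.67, adjusted p = 2.01e-05 by limma), and its change in Huh7-labelled libraries was −1.68 (adjusted p = 3.04e-07). The PP2A regulatory subunit PPP2R2B fell in HepG2-labelled libraries, to 1.78 ± 0.115 against 3.90 ± 0.204 FPKM untreated (adjusted p = 6.75e-06 by limma).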

How the data were processed

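Poly(A) RNA of 12 libraries was sequenced, and the labels' protocols name no step that keeps the strand. CASAVA and fastp and the build hg38 are named in the submitters' processing notes; for the aligner and counter, the sources used here name no tool. The authors deposited FPKM per gene and library, matched to samples by column name with 0 columns left over. FPKM times gene length gave whole fragments for 100% of values within 0.05 fragments.

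The tests came from limma 3.58.1 (R 4.3.3), applied to log2(FPKM + 1) in a model of 4 group means with 8 residual degrees of freedom and an intensity trend, two-sided, over 15518 genes with 1 FPKM or more in at least 3 libraries. EGR2 and EGR3 came from the same model over 35698 genes without that filter. From each list up to 4 called genes per line with the smallest p-values could be named; some of them are named, and lists share members. Likeness took the 3 closest genes. Some genes that these rules take are not reported here. Alternatives were a pseudocount of 0.1, no filter or 5 FPKM, other scalings, voom on recovered fragments, single-line fits, a replicate block and leaving out each library. Members and lists were chosen with earlier results of these data known.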

Additional observations from a re-analysis of the deposited data

Results flagged for a closer look

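The geniposide effect differed between the lines, by limma's test of the difference of effects (HepG2-labelled minus Huh7-labelled, log2 scale, adjusted over 15518 genes), for 5 of the 10 genes, as for 27.8% of tested genes. EGR2 and EGR3 were not among the 15518. The difference was 1.31 for EGR1, 0.90 for NR4A2, 1.04 for IER3, 0.41 for IER2 and 0.69 for IER5. In each the HepG2-labelled libraries had the higher change, with all 3 treated libraries above all untreated ones, as in 29.4% of tested genes in HepG2-labelled libraries. For EGR1, NR4A2 and IER3 the Huh7 groups overlapped, for IER2 both lines rose, and for IER5 the directions were opposite.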

How the results depend on the processing

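Over the 20 alternative settings, 771 of 780 recomputed changes of the 10 genes kept their side of the threshold, 7 lost the call and 2 gained it. No called change turned its sign. The 780 include EGR2 and EGR3, in which a change was not detectable at this depth, so their staying uncalled says little about stability. Leaving out single libraries gave 3 to 4 called genes in Huh7-labelled libraries and 5 to 6 for the difference between lines, with 7 in HepG2-labelled libraries and 8 for the untreated lines each time. NR4A1 in Huh7-labelled libraries lost its call without any untreated Huh7-labelled library, in the single-line fit and with the replicate block (adjusted p = 0.0581), its difference between lines passed with the filter of 5 FPKM (adjusted p = 0.0466), and the causes were not tested. With the replicate block 3 genes passed in Huh7-labelled and 7 in HepG2-labelled libraries. Deviations of same-numbered libraries correlated at −0.06 to 0.02, and those of differently numbered ones at −0.05 to 0.07. With 3 libraries per group these values cannot decide whether same-numbered libraries shared a culture or batch. The block changed no other member's call. Over all tested genes the single-line fit called 3418 in Huh7-labelled libraries, where the joint fit called 5357, and the filter of 5 FPKM, which tests fewer genes, called 7220 between untreated lines in place of 11146. In settings added after the data were seen, tests of the difference between lines passed for 4 EGR and NR4A partners with transcripts-per-million scaling (7 as deposited), and with voom for 2 EGR1 targets (5 as deposited) and 3 NR4A targets (5 as deposited). Depth limits EGR2 and EGR3, at 9 fragments or fewer per library.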
